A study of Mus musculus with 18 samples.

Results

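The Notch pathway genes described here are 3 receptors (Notch1, Notch2 and Notch3), 3 ligands (Dll1, Dll3 and Jag1) and 4 target genes of the Hes and Hey family (Hes1, Hes5, Hey1 and Hey2). They were chosen by symbol and number 10 of the 55385 genes in the count tables, and each symbol matched a single row. All 10 passed the filter on low counts at both ages. Levels were measured by polyA RNA sequencing of hippocampus from C57BL/6 mice, either with a conditional knockout (cKO) of Arid1a or wild type (WT). The Arid1a protein is a DNA-binding subunit of BAF chromatin remodelling complexes. The groups were 2 cKO and 2 WT libraries at postnatal day 21 (P21), and 3 cKO and 3 WT libraries at embryonic day 16.5 (E16.5). Chromatin immunoprecipitation sequencing (ChIP-seq) of hippocampus at 3 weeks gave 1 library per genotype for each of H3K4me3, H3K27ac, H3K27me3 and input. The labels do not say which Cre line or which cells carried the deletion, so a change in the bulk tissue cannot be placed in a cell type. They also do not say how many animals a library holds. Each group held libraries of both sexes by Xist and Ddx3y counts, so no group came from a single animal. Whether same-sex libraries at E16.5 came from separate animals is not stated, and p-values measure the spread between these libraries.

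Notch receptors are activated by ligands on neighbouring cells, cut by ADAM proteases and gamma-secretase, and the freed intracellular part joins the DNA-binding protein RBPJ to switch on Hes and Hey genes. The Hes and Hey proteins are repressors that hold down proneural genes. In the developing hippocampus the pathway is known for keeping radial glia undifferentiated, and after birth it acts in neural stem cells, astrocytes and blood vessels.

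At P21 the Hes5 level was several times higher in cKO hippocampus, and it was the only gene among the 10 to pass the test (1 higher and 0 lower, edgeR quasi-likelihood test, Benjamini-Hochberg adjusted p under 0.05). Among the 17407 genes tested at P21, 2.81% were called higher and 3.91% lower (489 and 680 genes, or 570 and 519 under upper-quartile scaling). Hes5 encodes a repressor of the Hairy family and is a direct RBPJ target in neural progenitors. Its level was 7.95 and 8.53 CPM (counts scaled to library size, with TMM factors) in the cKO libraries, against 2.15 and 1.91 CPM in the WT libraries. Both cKO libraries lay far above both WT libraries, although the counts behind them were modest, at 165 and 170 estimated counts in cKO and 43 and 38 in WT. The mean was 8.24 ± 0.404 CPM in cKO and 2.03 ± 0.175 CPM in WT (SD, n = 2 each), which is 2.02 on the log2 scale or 4.05-fold (SE of the log2 change 0.22, edgeR adjusted p = 0.00435). In bulk tissue, more cells of a type and more RNA per cell cannot be told apart. Hes5 passed the threshold in all 10 alternative analyses, with log2 changes between 1.93 and 2.11. In the authors' deposited table the log2 change of Hes5 was 2.02 (SE 0.37) with an adjusted p of 4.38e-06, and no other of the 10 genes had an adjusted p under 0.05, where 1.53% of all genes in that table were called higher and 2.65% lower.

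Hey2 was the next largest difference and did not pass. Hey2 encodes a repressor of the Hairy-related family, known from arterial endothelium and from supporting cells and progenitors. It had 8.68 and 7.22 CPM in cKO, against 5.16 and 4.31 CPM in WT. The cKO libraries were both higher and the groups did not overlap, with a log2 difference of 0.75 (SE 0.21, edgeR adjusted p = 0.0793). Without the filter on low counts Hey2 passed (adjusted p = 0.0460), and it passed without cKO replicate 2 (adjusted p = 0.0472).

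The other target genes differed less. Hey1, a close relative of Hey2, had 52.4 and 56.1 CPM in cKO, against 43.7 and 44.1 CPM in WT. These groups did not overlap either, and the log2 difference of Hey1 was 0.31 (SE 0.10, adjusted p = 0.120). Hes1, the Hairy-type repressor that shares roles with Hes5 in radial glia, had 7.28 and 7.82 CPM in cKO, against 6.71 and 6.87 CPM in WT. Its log2 difference was 0.15 (SE 0.18, edgeR adjusted p = 0.655), smaller than its error although the groups did not overlap.

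The bases just upstream of the start sites of Hes5 and Hey2 are shown because these were the 2 target genes with the largest P21 differences, and because theirs were the only promoters among the 8 genes with a known start to hold the core word bound by RBPJ. Sequences are from RefSeq, build GRCm38.p6, 250 bases ending just before the start site, 5′ to 3′ on the strand of the gene. Capitals mark the word TGGGAA or its reverse complement TTCCCA. Hes5 lies at chr4:154960626-154962372 on the plus strand, with the window at chr4:154960673-154960922. The start site used for Hes5 is base 154960923, downstream of where the gene span begins, so its window lies wholly inside that span. Hey2 lies at chr10:30832359-30842783 on the minus strand, with the window at chr10:30842784-30843033.
Hes5: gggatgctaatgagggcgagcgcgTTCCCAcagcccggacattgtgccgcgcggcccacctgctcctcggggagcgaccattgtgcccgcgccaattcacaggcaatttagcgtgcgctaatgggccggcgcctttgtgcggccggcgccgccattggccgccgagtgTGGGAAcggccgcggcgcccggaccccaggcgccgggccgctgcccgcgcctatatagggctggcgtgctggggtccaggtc
Hey2: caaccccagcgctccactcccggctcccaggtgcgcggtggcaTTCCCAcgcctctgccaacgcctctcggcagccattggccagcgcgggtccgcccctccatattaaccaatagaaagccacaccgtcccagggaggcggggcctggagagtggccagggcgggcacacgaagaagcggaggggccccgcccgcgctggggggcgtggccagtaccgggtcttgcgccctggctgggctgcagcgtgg

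The Hes5 window holds 2 such words, on opposite strands, beginning 226 and 82 bases before the start site, and the Hey2 window holds 1, beginning 207 bases before it. A start site was found for 8 of the 10 genes, Hes1 and Hey1 being the others, and the word was absent from the windows of the other 6. Of all 32851 promoters of this length in the same table, 21.6% hold the word on either strand, so its presence in Hes5 and Hey2 is a description of these letters and not of binding. The class C site CACGCG (or CGCGTG), a word that Hairy-type repressors bind, was in the windows of Notch2, Jag1 and Dll1, the last in 1 of its 2 annotated windows, and in 7.62% of all promoters. The class B E box CACGTG was in none of the 8 genes' windows and in 6.02% of all promoters.

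**Figure D1:**
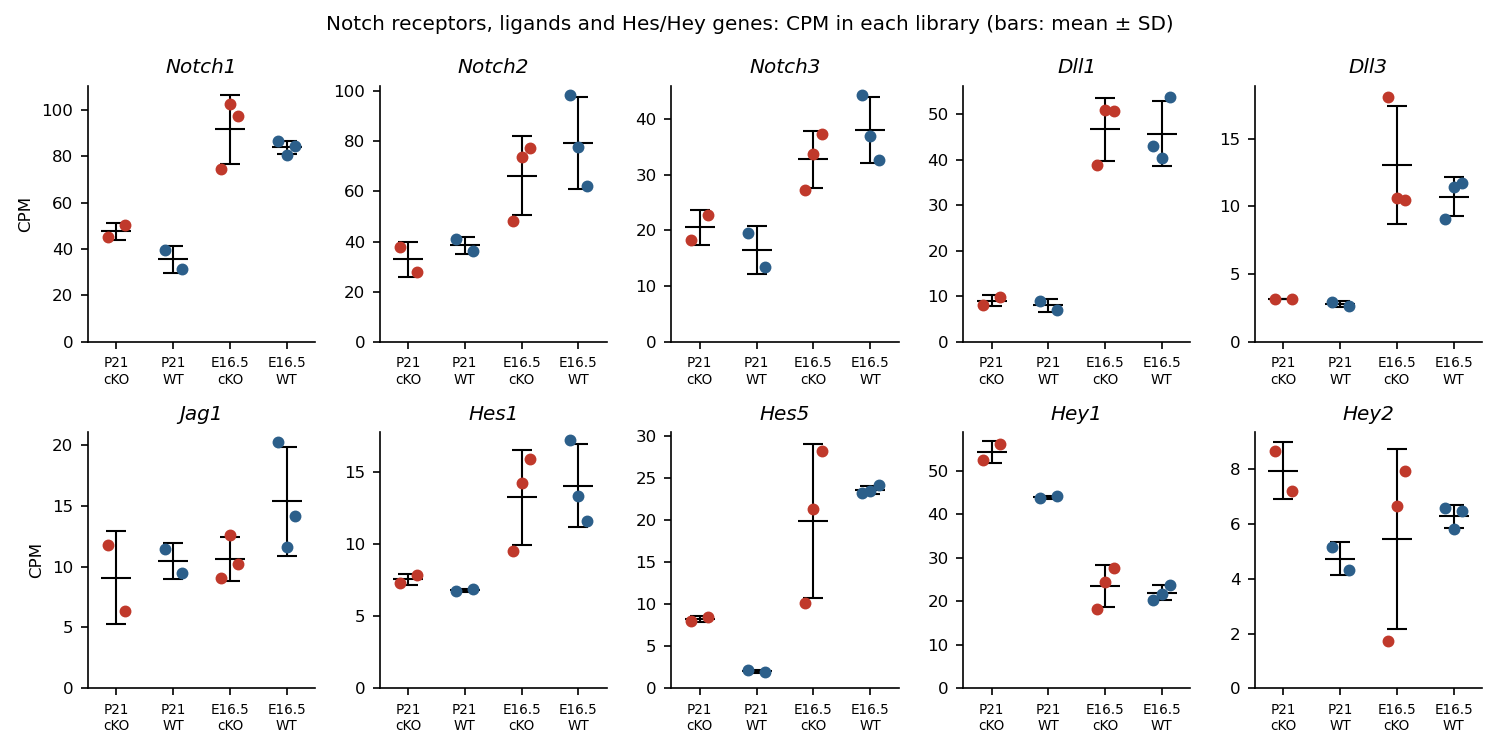
CPM (counts scaled to library size, with TMM factors within each age) of the 10 Notch pathway genes in each RNA library, with points for libraries and bars for the mean ± SD (2 libraries per genotype at P21, 3 at E16.5). Hes5 at P21 is near 8 CPM in both cKO libraries and near 2 CPM in both WT libraries, while at E16.5 every gene has overlapping genotypes.

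None of the receptors passed the test at P21. Notch1, the main receptor of neural progenitors, had 45.0 and 50.2 CPM in cKO, against 39.8 and 31.4 CPM in WT. The cKO libraries were both higher, with a log2 difference of 0.42 (SE 0.14, edgeR adjusted p = 0.117). Notch3, a receptor best known from mural cells of vessels, had 18.4 and 22.8 CPM in cKO, against 19.6 and 13.4 CPM in WT, and the groups overlapped (log2 0.32, SE 0.20, adjusted p = 0.383). Notch2, a receptor of progenitors and quiescent stem cells, had 37.8 and 28.0 CPM in cKO, against 41.0 and 36.2 CPM in WT, and again the groups overlapped (log2 -0.23, SE 0.16, adjusted p = 0.420).

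The ligands likewise gave no call at P21. Dll1, a Delta ligand that progenitors and newborn neurons present to their neighbours, had 8.15 and 9.88 CPM in cKO, against 9.01 and 6.97 CPM in WT, a log2 difference of 0.17 (SE 0.21, edgeR adjusted p = 0.653). Dll3, which binds Notch inside its own cell and does not activate receptors on neighbours, was low at 3.13 and 3.16 CPM in cKO, against 2.95 and 2.66 CPM in WT (log2 0.16, SE 0.26, adjusted p = 0.741). Jag1, a Serrate-type ligand, split the cKO libraries, with 11.8 CPM in replicate 1 and 6.37 CPM in replicate 2, against 11.5 and 9.43 CPM in WT (log2 -0.20, SE 0.29, adjusted p = 0.719). Without cKO replicate 1 the log2 difference of Jag1 was -0.71 (adjusted p = 0.0448), and without cKO replicate 2 it was 0.17 (adjusted p = 0.642), so a single library sets its direction. Leaving out cKO replicate 1 also moved the log2 difference of Notch1 to 0.50 and that of Notch2 to -0.46. By Xist and Ddx3y counts this set a single female cKO library against a male and a female WT library. The omitted cKO replicate 1 also had the highest summed level of choroid plexus and ependyma markers, at 3665 CPM. The sum was 1064 CPM in the other cKO library and 1442 and 1209 CPM in the WT libraries. Ttr alone averaged 2189 CPM in cKO and 1191 CPM in WT. Of the 12 markers edgeR called 2 higher in cKO (Foxj1 and Tmem212) and 0 lower, where 2.81% of all tested genes were higher. Both had groups that did not overlap, but the fit of all 10 libraries called 0 of the 12. The part of these cells in Jag1, Notch1 and Notch2 was not tested.

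Counted together at P21, 6 of the 10 genes (Notch1, Dll3, Hes1, Hes5, Hey1 and Hey2) had groups that did not overlap with cKO higher, and 0 had them with cKO lower. Among all tested genes 28.2% did so with cKO higher and 27.9% with cKO lower. At an unadjusted p under 0.05 stood 4 of the 10 genes (Notch1, Hes5, Hey1 and Hey2), against 24.9% of all tested genes. The median log2 difference of the 10 genes was 0.24, beside 0.0086 for all tested genes, and it ranged between 0.12 (without WT replicate 2) and 0.33 (without cKO replicate 1 or WT replicate 1) with a library left out.

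**Figure D2:**
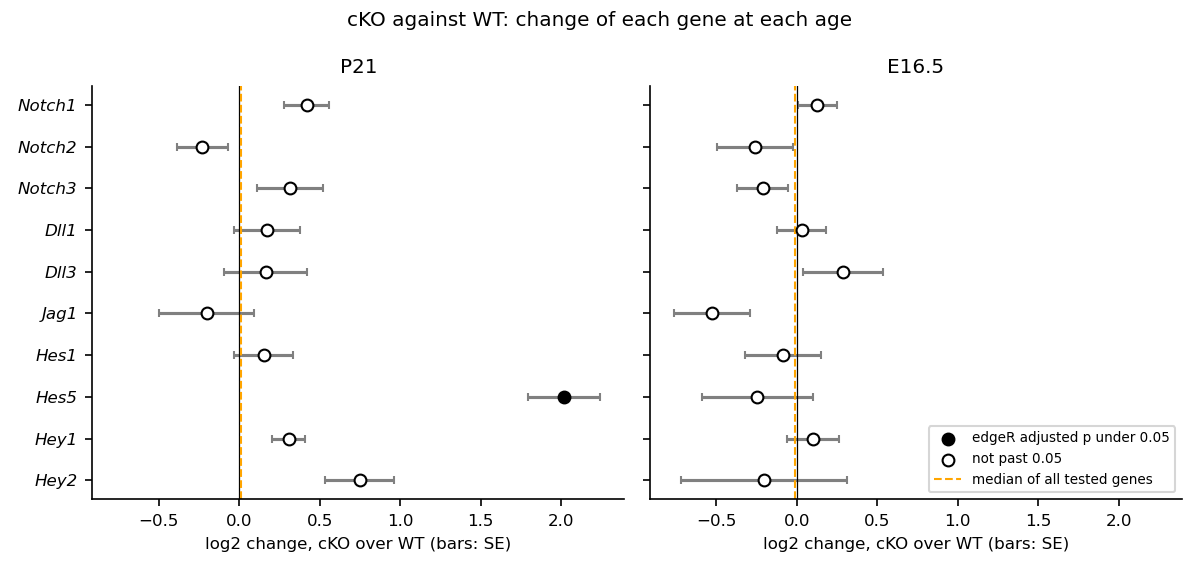
Log2 change of each gene in cKO relative to WT at P21 (left) and E16.5 (right), with bars for the SE and a dashed line for the median of all tested genes. Hes5 at P21, at 2.02, is the only filled point, which marks an edgeR adjusted p under 0.05.

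At E16.5 none of the 10 genes passed in edgeR, DESeq2 or the authors' deposited table, and 0 had an unadjusted p under 0.05 in edgeR. Few genes of any kind did at this age, with 0.0118% of 16958 tested genes called higher and 0.112% lower by edgeR, and 1.05% higher and 2.14% lower in the authors' deposited table. By unadjusted p 20.6% of tested genes were under 0.05 in edgeR. The cKO and WT libraries overlapped for all 10 genes, where 29.2% of tested genes had groups that did not. The median log2 difference of the 10 genes was -0.14, beside -0.010 for all tested genes, and single libraries set it: it was 0.11 without cKO replicate 1, -0.28 without cKO replicate 3 and -0.03 without WT replicate 1.

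Hes5 at E16.5 had 10.1, 21.3 and 28.3 CPM in cKO, against 23.2, 23.4 and 24.2 CPM in WT. The WT libraries were nearly equal, while the cKO libraries lay on both sides of them, with replicate 1 lowest. The log2 difference was -0.24 (SE 0.35, edgeR adjusted p = 0.702), and it was 0.09 without cKO replicate 1. Hey2 showed the same spread, at 1.74, 6.67 and 7.95 CPM in cKO against 6.58, 5.80 and 6.46 CPM in WT (log2 -0.20, SE 0.52, adjusted p = 0.840), and without cKO replicate 1 its log2 difference was 0.24. Hes1 had 9.53, 14.3 and 15.9 CPM in cKO, against 17.2, 13.4 and 11.6 CPM in WT, and its log2 difference of -0.09 (SE 0.23, adjusted p = 0.849) became 0.12 without that library. Hey1 had 18.3, 24.5 and 27.7 CPM in cKO, against 20.4, 21.7 and 23.8 CPM in WT (log2 0.10, SE 0.16, adjusted p = 0.735). In all 4 target genes cKO replicate 1 was thus the lowest of the cKO libraries.

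Of the ligands at E16.5, Jag1 came closest to a call. It had 9.09, 12.6 and 10.2 CPM in cKO, against 20.3, 11.6 and 14.2 CPM in WT, and only the range between 11.6 and 12.6 CPM was shared (log2 -0.53, SE 0.24, edgeR adjusted p = 0.267). Dll3 was highest in cKO replicate 1, at 18.1 CPM, with 10.6 and 10.5 CPM in the other cKO libraries against 9.05, 11.5 and 11.7 CPM in WT, and without that library its log2 difference of 0.28 became -0.0016. Dll1 ranged between 38.8 and 50.8 CPM in cKO and between 40.4 and 53.8 CPM in WT, a log2 difference of 0.03 (SE 0.15, adjusted p = 0.917).

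None of the receptors passed at E16.5. Notch1 had 74.5, 102.5 and 97.5 CPM in cKO, against 86.5, 80.6 and 84.2 CPM in WT (log2 0.13, SE 0.12, edgeR adjusted p = 0.570). Notch2 had 48.2, 73.6 and 77.4 CPM in cKO, against 98.5, 77.7 and 62.0 CPM in WT (log2 -0.26, SE 0.24, adjusted p = 0.553). Notch3 had 27.3, 33.7 and 37.3 CPM in cKO, against 44.3, 37.0 and 32.7 CPM in WT (log2 -0.21, SE 0.16, adjusted p = 0.460). Notch2, Notch3, Jag1 and Hes1 were all highest in WT replicate 1.

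The libraries at E16.5 also differed in markers of other cell types. WT replicate 1 had the highest summed levels of endothelial markers, at 452 CPM (195 and 204 CPM in the other WT libraries, 145 to 155 CPM in cKO), of mural markers, at 279 CPM (136 and 148 CPM in the other WT libraries, 97.0 to 119 CPM in cKO), and of meningeal fibroblast markers, at 1158 CPM (131 and 239 CPM in the other WT libraries, 15.6 to 83.1 CPM in cKO). All 11 endothelial markers had lower fitted levels in cKO at E16.5, between -1.55 and -0.50 on the log2 scale. By edgeR 0 of the endothelial, mural and meningeal markers passed. At an unadjusted p under 0.05 were 10 of 11, 6 of 10 and 8 of 8 of them in that order, all lower in cKO. Among all tested genes 20.6% were, in either direction. DESeq2, which called many more genes of any kind than edgeR at this age, called 1, 4 and 7 of them lower. Choroid plexus and ependyma markers varied most, at 9.14, 52.0 and 2585 CPM in cKO against 4963, 3353 and 47.5 CPM in WT, and astrocyte markers summed to 301, 502 and 583 CPM in cKO against 1051, 840 and 808 CPM in WT. The part of vessel and meningeal RNA in Notch3, Jag1, Hey1 and Hey2, which those cells express, was not tested. For radial glia markers, the cells in which Hes1 and Hes5 are known to act, the sum was 1739, 2186 and 2119 CPM in cKO, against 2440, 2271 and 2463 CPM in WT, and cKO replicate 1 was lowest here too.

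**Figure D3:**
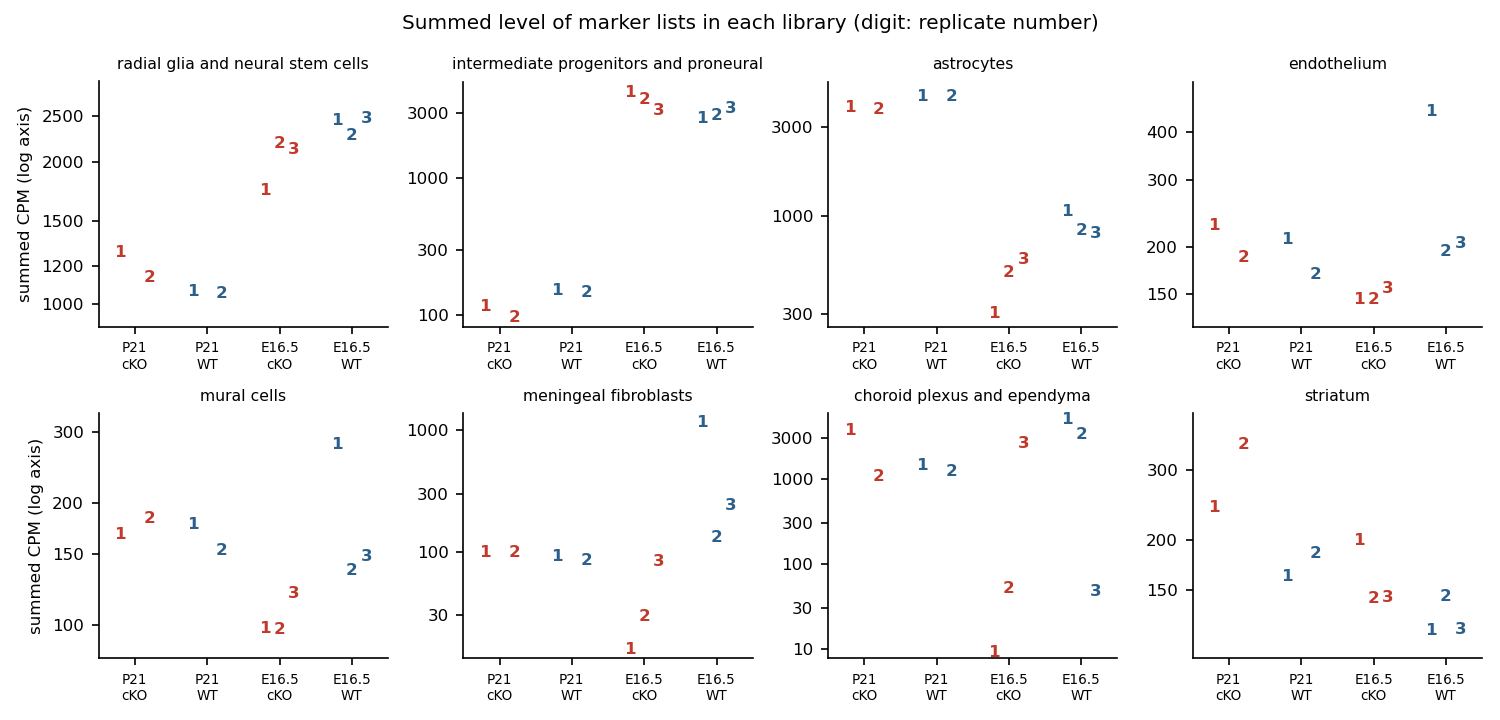
Summed CPM (log axis) of marker gene lists in each RNA library, cKO in red and WT in blue, with the digit giving the replicate number. WT replicate 1 at E16.5 stands highest for endothelium (452 CPM), mural cells (279 CPM) and meningeal fibroblasts (1158 CPM), and cKO replicate 1 at P21 stands highest of its age for choroid plexus and ependyma (3665 CPM).

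At P21 the corresponding sums were as follows, where among all tested genes 2.81% were called higher and 3.91% lower. Radial glia and stem cell markers summed to 1285 and 1139 CPM in cKO, against 1063 and 1051 CPM in WT. Slc1a3 alone averaged 694 CPM in cKO and 562 CPM in WT. Of the 15 markers 3 were higher (Sox2, Sox9 and Vim) and 3 lower (Fabp7, Lpar1 and Emx2). In the fit of all 10 libraries 1 was higher and 1 lower. The median log2 difference of the list was -0.14, and 0.12 without cKO replicate 2. Astrocyte markers summed to 3800 and 3694 CPM in cKO, against 4355 and 4334 CPM in WT, with 2 of 11 higher (Gjb6 and Sox9) and 3 lower (Aqp4, S100b and Slc7a10), or 1 higher and 2 lower with either WT library left out. The astrocyte and stem cell lists share Sox9 and Slc1a3. Endothelial markers summed to 228 and 188 CPM in cKO, against 209 and 169 CPM in WT, with 2 of 11 higher (Pecam1 and Cldn5) and 1 lower (Tek); without WT replicate 2 no endothelial marker was called, and without WT replicate 1 there was 1 higher and 0 lower. Their part in the Hes5 and Hey2 differences was not tested. Striatal markers summed to 242 and 347 CPM in cKO, against 162 and 186 CPM in WT, with 3 of 11 higher, or 0 in the fit of all 10 libraries. The sums of both cKO libraries lay above those of both WT libraries. Finally, oligodendrocyte lineage markers summed to 4694 and 4338 CPM in cKO, against 7299 and 7850 CPM in WT, with 8 of 11 lower. The fit of all 10 libraries, which called fewer genes of any kind at P21, called 2 of these 11 lower. For astrocytes that fit called 0 markers higher and 1 lower, and for endothelium 0 in either direction.

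The check of the knockout and the tissue was as follows. Arid1a fell to 110 and 89.2 CPM in cKO at P21, against 215 and 205 CPM in WT (log2 -1.08, SE 0.13, edgeR adjusted p = 0.00507), and to 175 to 180 CPM in cKO at E16.5, against 262 to 285 CPM in WT (log2 -0.64, SE 0.06, adjusted p = 0.0320). Hippocampal neuron markers summed to 8127 and 9148 CPM in cKO and 9091 and 8505 CPM in WT at P21. Most of this was Camk2a, at means of 7232 CPM in cKO and 7343 CPM in WT. Of the 11 markers 1 was higher (Wfs1, log2 1.12, edgeR adjusted p = 0.0108) and 1 lower (Prox1, log2 -1.86, adjusted p = 0.0315), and the fit of all 10 libraries called 0. Their median log2 difference was -0.37, and among all tested genes 2.81% were higher and 3.91% lower. At E16.5 the sums were 2264 to 3372 CPM in cKO and 2443 to 3113 CPM in WT. Libraries held between 20090000 and 20332000 estimated counts at P21 and between 17662000 and 19761000 at E16.5. By the same counts of Xist and Ddx3y each genotype had 1 male and 1 female library at P21, and 1 male and 2 female libraries at E16.5.

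Whether the cKO effect differed between ages was tested in a single fit of the 10 libraries. For Hes5 the effect at P21 exceeded that at E16.5 by 2.22 on the log2 scale (SE 0.51), but with an edgeR adjusted p of 0.0733 it did not pass, and the other 9 genes had adjusted p values of 0.388 or more. In that contrast 1.16% of 18979 tested genes were called (81 higher and 140 lower, or 97 and 97 under upper-quartile scaling). The Hes5 difference passed in DESeq2 (adjusted p = 0.00179), without cKO replicate 1 at E16.5 (adjusted p = 0.0176) and without cKO replicate 3 at E16.5 (adjusted p = 0.0342), which are the lowest and highest cKO libraries of that age. Over its 15 alternatives the adjusted p ranged between 0.00179 and 0.274, and 3 passed. For the other 9 genes the difference between ages lay between -0.16 (Dll3) and 0.91 (Hey2, SE 0.70, adjusted p = 0.500).

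The WT libraries give the course of these genes from the embryo to the third postnatal week, with the limit that age and deposited table cannot be told apart. Of the 10 genes 7 were lower at P21, 1 was higher and 2 did not pass, where 32.6% of tested genes were lower and 27.8% higher. The median of all tested genes was itself -0.12 in this contrast, and -0.018 under another scaling (RLE), so a change near that size cannot be told from the scaling. Hes5 fell most among the 10, to 2.19 ± 0.207 CPM in WT at P21 (SD, n = 2), against 22.4 ± 0.584 CPM in WT at E16.5 (SD, n = 3), on the scale of the joint fit (log2 -3.35, SE 0.41, edgeR adjusted p = 0.000117). The cKO libraries at P21 averaged 8.76 ± 0.529 CPM on that scale, which lies between the WT levels of the 2 ages.

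The Delta ligands fell next after Hes5. Dll1 averaged 8.63 ± 1.63 CPM at P21 and 43.4 ± 7.04 CPM at E16.5 (log2 -2.33, SE 0.21, edgeR adjusted p = 1.38e-05), and Dll3 3.03 ± 0.251 CPM at P21 and 10.2 ± 1.40 CPM at E16.5 (log2 -1.75, SE 0.28, adjusted p = 0.000512). The receptors fell together by similar amounts, with log2 changes of -1.05 for Notch1, -1.02 for Notch3 and -0.85 for Notch2 (adjusted p = 0.000351, 0.00309 and 0.0182), and Hes1 fell by 0.86 (adjusted p = 0.0126). Notch2 and Hes1 no longer passed when either WT library of P21 was left out (adjusted p between 0.0578 and 0.112), and Notch2 did not pass without the filter on low counts (adjusted p = 0.0536). Hey1 alone rose, to 47.3 ± 0.0384 CPM at P21, against 20.8 ± 1.71 CPM at E16.5 (log2 1.18, SE 0.15, adjusted p = 0.000151). Jag1 (log2 -0.37, adjusted p = 0.325) and Hey2 (log2 -0.22, adjusted p = 0.720) did not pass, so the close relatives Hey1 and Hey2 had different courses, although the difference between them was not tested.

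The rest of the pathway was read from lists of ligands, modifiers, proteases, nuclear effectors and targets. Among 8 tested further ligands and receptors 2 rose at P21 and 0 fell, where 2.81% of all tested genes rose and 3.91% fell. The median log2 difference of these 8 was 0.20, or 0.10 without cKO replicate 2. Dlk1, a Delta-like protein that lacks the usual Notch-binding domain, averaged 44.1 ± 7.53 CPM in cKO and 5.09 ± 0.669 CPM in WT (SD, n = 2 each; log2 3.12, SE 0.18, edgeR adjusted p = 0.000490). Notch4, a receptor of endothelium, averaged 13.5 ± 0.239 CPM in cKO and 6.96 ± 1.06 CPM in WT (log2 0.96, SE 0.18, adjusted p = 0.0232), and it no longer passed without WT replicate 2 or in the fit of all 10 libraries. Dll4, the endothelial Delta ligand, averaged 4.78 ± 1.15 CPM in cKO and 2.13 ± 0.955 CPM in WT and did not pass (log2 1.16, SE 0.36, adjusted p = 0.0976).

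Of 17 modifiers of ligands and receptors, 1 rose and 0 fell at P21, near the shares of all tested genes (2.81% rose and 3.91% fell). The median log2 difference of the modifiers was -0.05, or 0.03 without cKO replicate 1 and 0.0059 without WT replicate 1. Lfng, a glycosyltransferase that changes which ligands a receptor answers to, averaged 29.0 ± 6.37 CPM in cKO and 17.7 ± 0.162 CPM in WT (log2 0.71, SE 0.17, edgeR adjusted p = 0.0457), and it passed in 6 of 10 alternatives. The 10 receptor proteases, which include the gamma-secretase subunits, gave 0 calls in edgeR and in DESeq2 (3 with cKO higher and 1 with cKO lower had an unadjusted p under 0.05), and the closest was Psen2 (log2 0.46, SE 0.15, adjusted p = 0.109). Of 15 nuclear effectors and corepressors 0 rose and 1 fell. The 1 was Hdac1, a deacetylase of corepressor complexes, at 20.3 ± 3.19 CPM in cKO and 31.3 ± 1.64 CPM in WT (log2 -0.62, SE 0.14, adjusted p = 0.0442), which passed in 6 of 10 alternatives and not under upper-quartile scaling.

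Of 13 tested genes on the list of other Hes genes and targets, 4 rose and 2 fell at P21, where 2.81% of all tested genes rose and 3.91% fell. The median log2 difference of the list was 0.55, and 0.26 without cKO replicate 1, when 5 rose and 1 fell. Several of these are also targets of other pathways, the Id genes of BMP signalling and Cdkn1a of p53. Cdkn1a, a cell cycle inhibitor, averaged 62.8 ± 12.4 CPM in cKO and 13.1 ± 3.38 CPM in WT (log2 2.26, SE 0.22, edgeR adjusted p = 0.00498). The inhibitors of bHLH factors Id1 (log2 1.34, adjusted p = 0.00704) and Id3 (log2 1.47, adjusted p = 0.0195) and the glial factor Sox9 (log2 0.79, adjusted p = 0.0108) also rose. Fabp7, a fatty acid binding protein of radial glia, fell by 1.18 on the log2 scale (adjusted p = 0.0133), and Ccnd1, the cell cycle gene for cyclin D1, fell by 1.0 on the log2 scale (adjusted p = 0.0192). Of these, Id1 passed in 10 of 10 alternatives, Cdkn1a and Fabp7 in 9 and Id3, Sox9 and Ccnd1 in 8. At E16.5 edgeR called 0 genes in each of these 5 lists, with the closest being Furin (log2 -0.43, SE 0.08, adjusted p = 0.132), and between 0 and 7 genes of a list had an unadjusted p under 0.05. DESeq2 called many more genes of any kind than edgeR at E16.5, with 412 higher and 731 lower among all tested genes. On these 5 lists it called Dll4, Furin, Maml3 and Id1 lower. It called Rbpj, the DNA-binding partner of the receptors, higher. The genes that rose most at P21 gave other values here, as Dlk1 averaged 13.5 ± 6.46 CPM in cKO and 23.9 ± 4.94 CPM in WT (SD, n = 3 each; log2 -0.83, edgeR adjusted p = 0.253).

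Proneural genes and intermediate progenitor markers include genes of the kind that Hes proteins repress. At P21, 0 of 10 tested were higher in cKO and 2 were lower (Sox11 and Nhlh1), where 2.81% of all tested genes were higher and 3.91% lower. By unadjusted p 6 of the 10 were lower at P21 and 0 higher, where 24.9% of all tested genes were under 0.05 in either direction. The median log2 difference of the list was -0.39, beside 0.0086 for all tested genes. With a library left out it lay between -0.55 (without cKO replicate 1) and -0.36 (without cKO replicate 2). The fit of all 10 libraries called 1 of 12 lower (Sox11). The part of Hes5 in these levels was not tested. The list summed to 115 and 96.1 CPM in cKO, against 152 and 147 CPM in WT. At E16.5, 1 of 12 was higher and 0 were lower, where 0.0118% of all tested genes were higher and 0.112% lower. The 1 was Neurog1, a proneural bHLH factor, at 9.89 ± 2.06 CPM in cKO and 0.345 ± 0.0327 CPM in WT (SD, n = 3 each; log2 4.81, SE 0.26, edgeR adjusted p = 0.0103). Neurog1 did not pass without WT replicate 1, without WT replicate 3 or with the replicate block. DESeq2, which called 412 genes higher and 731 lower among all tested genes at E16.5, also called Eomes, Neurog2 and Sox11 higher.

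**Figure D4:**
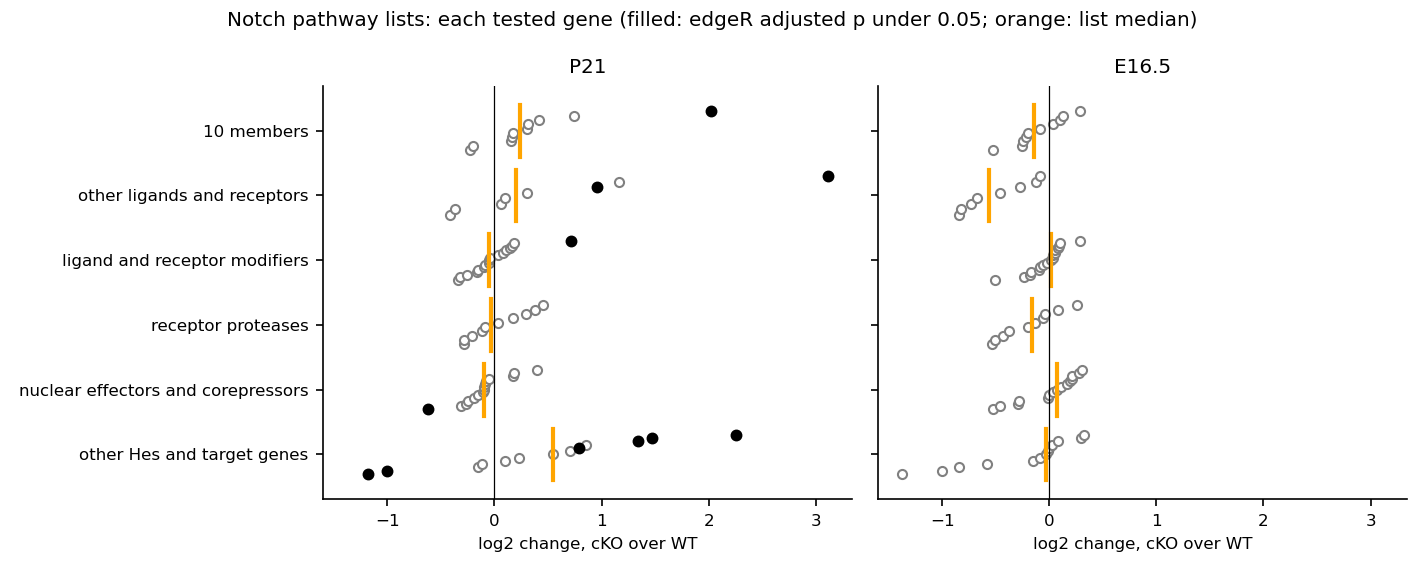
Log2 change in cKO relative to WT of every tested gene on the 6 Notch pathway lists at P21 (left) and E16.5 (right), with filled points for an edgeR adjusted p under 0.05 and orange bars for list medians. At P21 the filled points are Hes5 (2.02), Dlk1 (3.12), Notch4 (0.96), Lfng (0.71), Hdac1 (-0.62) and 6 genes of the other Hes and target list, and at E16.5 there are none.

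The peak lists at 3 weeks give the marks at the same loci, with 1 library per mark and genotype and thus no test. H3K4me3 marks active or poised starts, H3K27ac active ones, and H3K27me3 is deposited by Polycomb complexes at repressed or bivalent genes. The cKO lists were longer in every mark, most of all for H3K27me3, with 15659 peaks over 13.0 Mb in cKO and 4124 peaks over 2.86 Mb in WT from 17399169 tags in cKO and 18009991 tags in WT. For H3K27ac there were 24065 peaks in cKO and 13006 in WT, and for H3K4me3 28234 in cKO and 25145 in WT. A gene was counted as marked when a peak lay in it or within 1 kb.

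All 10 genes had an H3K4me3 peak in both genotypes, as 85.9% of 15932 located genes did. H3K27ac was found at 7 genes in cKO and 4 in WT, and the 3 marked only in cKO were Notch1, Hes5 and Jag1, where 71.9% of located genes had a peak in cKO, 51.0% in WT and 21.9% only in cKO. Notch1 had 12 H3K27ac peaks in cKO and 0 in WT, from a cKO list that was the longer one. H3K27me3 was found at 8 genes in cKO, all but Notch2 and Hey1, and at 0 in WT, where 18.0% of located genes had a peak in cKO, 3.70% in WT and 14.3% only in cKO. When the longer list of each mark was shortened to the length of the other by q-value, an alternative chosen after seeing the data, H3K27me3 was left at 4 of the 10 genes in cKO (Notch1, Notch3, Dll3 and Hes1) and 0 in WT, with 5.37% of located genes marked only in cKO. H3K27ac was then at 5 genes in cKO and 4 in WT, with Notch1 and Jag1 marked only in cKO, Dll1 only in WT and Hes5 in neither, where 13.1% of located genes were marked only in cKO. The H3K27ac peaks of Notch1 in cKO then numbered 4. All 3 marks were at 5 genes in cKO (Notch1, Dll1, Jag1, Hes1 and Hes5) and at 0 in WT, where 9.16% of located genes had all 3 in cKO and 0.251% in WT. With lists of equal length 2 genes had all 3 in cKO (Notch1 and Hes1) and 0 in WT, against 2.4% of located genes in cKO. Under a stricter q threshold (−log10 q of at least 5) H3K27me3 was at 6 genes in cKO, without Hes5 and Hey2, and 0 in WT. The share of all located genes under that threshold was not counted, so these counts have no background beside them.

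The starts of Notch3 and Dll3 are shown because they carried the strongest H3K27me3 peak of the set and the one start with H3K27me3 but no H3K4me3 nearby. Notch3 lies at chr17:32120820-32166896 and Dll3 at chr7:28293555-28301785, both on the minus strand, and the RefSeq GRCm38.p6 windows are chr17:32166891-32167140 and chr7:28301786-28302035. Capitals mark the N box CACNAG or its reverse complement CTNGTG, a word that Hairy-type repressors bind.
Notch3: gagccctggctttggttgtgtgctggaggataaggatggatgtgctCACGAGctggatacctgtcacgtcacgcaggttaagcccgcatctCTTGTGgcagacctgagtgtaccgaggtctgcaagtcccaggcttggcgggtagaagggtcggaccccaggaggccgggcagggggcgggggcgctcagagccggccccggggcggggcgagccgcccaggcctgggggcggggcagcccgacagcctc
Dll3: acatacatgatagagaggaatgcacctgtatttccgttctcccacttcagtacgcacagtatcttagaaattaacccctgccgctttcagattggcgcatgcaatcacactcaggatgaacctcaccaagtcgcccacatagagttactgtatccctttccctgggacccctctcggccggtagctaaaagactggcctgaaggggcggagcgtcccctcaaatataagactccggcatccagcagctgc

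Notch3 holds 2 N boxes in its window and Dll3 holds 0, while 36.7% of all promoters hold at least 1. Over the Notch3 start the cKO list had an H3K27me3 peak of 1673 bases (chr17:32165514-32167186) with the authors' fold enrichment of 12, in the top 3.73% of its list, and the nearest peak of the WT list was 229 kb from the gene. An H3K4me3 peak of the cKO list lay over that start with fold 8.49, and it overlapped 2 peaks of the WT list, one over the start with fold 3.49 and one 363 bases from it with fold 7.42. Over the Dll3 start the cKO list had an H3K27me3 peak of 855 bases (fold 8.31), while the H3K4me3 peak of the gene lay 6732 bases from the start in cKO and 6701 bases from it in WT.

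At Hes5 the 3 marks met in cKO, although with lists of equal length H3K4me3 alone remained. An H3K4me3 peak covered the start in both genotypes, with fold 11.2 in cKO (chr4:154960363-154962103) and 12.5 in WT (chr4:154960579-154961896). In cKO an H3K27me3 peak (chr4:154960274-154960990) covered the start and the whole window printed above, and 2 more lay 214 and 829 bases downstream. All 3 had fold 4.51 and a −log10 q of 4.97, which placed them at 64.3% of the list from the top. The single H3K27ac peak of Hes5 in cKO had fold 3.24 and ranked among the weakest of its list, at 99.2% from the top, and in WT there was none. The nearest H3K27me3 peak in WT was 12 kb away. Hes5 lies 21.2 Mb from Arid1a on chromosome 4. Of 54 tested genes within 1 Mb of Hes5, 1 was called higher and 2 lower at P21. These counts lie near the shares of all tested genes, of which 2.81% were called higher and 3.91% lower.

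Hey2, whose H3K4me3 peak spanned its printed window in both genotypes (fold 9.19 in cKO, 13.7 in WT), had 1 H3K27me3 peak in cKO 770 bases upstream of its start, with fold 4.51. Hes1 had 6 H3K27me3 peaks in cKO, the strongest with fold 8.72, and Notch1 had 4, the strongest with fold 8.83. Jag1 had 3, with fold up to 5.41, and Dll1 had 1 (fold 4.81). Notch2 and Hey1, which had no H3K27me3 peak in either genotype, had the highest H3K4me3 fold of the set in both lists, at 13.8 and 14.5 in cKO against 20.2 and 17.1 in WT. The P21 RNA differences of the 8 genes with H3K27me3 in cKO ranged between -0.20 (Jag1) and 2.02 (Hes5) on the log2 scale, and those of Notch2 and Hey1 were -0.23 and 0.31.

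**Figure D5:**
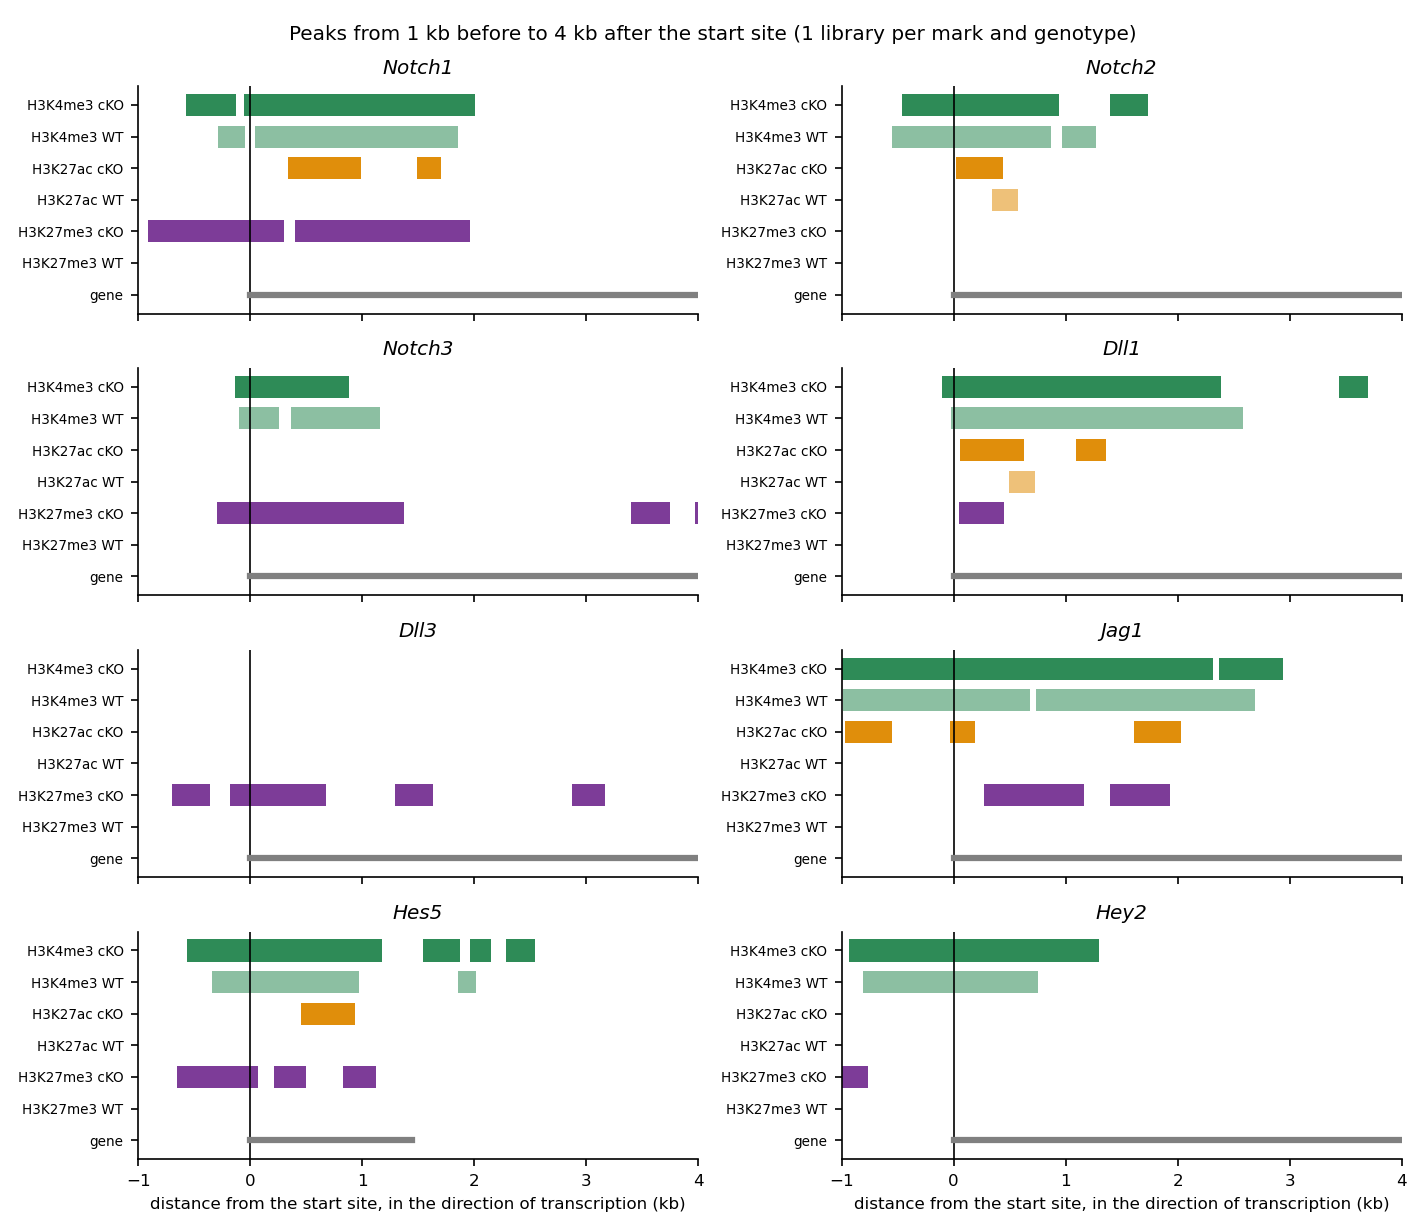
Peaks of the 3 marks in cKO and WT from 1 kb before to 4 kb after the start site (x axis, kb in the direction of transcription) of the 8 genes with a known start, 1 library per mark and genotype; the grey bar is the gene. H3K27me3 bars (purple) appear in cKO at 7 of the 8 starts and in WT at none, and H3K4me3 bars (green) appear in both genotypes near every start but that of Dll3.

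Over the 10 RNA libraries, which differ in age as well as genotype, the genes most like each one were taken by Pearson correlation of log2 CPM among 12316 genes with a mean of at least 5 CPM. Dll1 was matched most closely by Pde9a, A330084C13Rik and Rab3d (r = 0.998, 0.998 and 0.997), Dll3 by Vps28, 1600020E01Rik and Rab33a (r = 0.995, 0.994 and 0.994), and Jag1 by Ptpn13, Ppib and Tpst1 (r = 0.938, 0.895 and 0.895). Hes5 was matched by Tgif1, Snx4 and Sox9 (r = 0.987, 0.979 and 0.975), Hes1 by Tcf7l1, Nxn and Wwtr1 (r = 0.983, 0.983 and 0.967), Hey1 by Cacul1, Bnip3 and Mt2 (r = 0.994, 0.993 and 0.991), and Hey2 by Rfx4, Crym and Ccdc3 (r = 0.966, 0.926 and 0.915). Notch1 was matched by Ring1, Pelo and Poll (r = 0.987, 0.987 and 0.985), Notch2 by Ltbp3, Adamtsl1 and Tm9sf1 (r = 0.987, 0.978 and 0.976), and Notch3 by Trim26, Hba-a2 and Itga5 (r = 0.969, 0.968 and 0.966). These are descriptions of 10 libraries, with no test.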

How the data were processed

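The authors deposited per age a table of estimated counts per gene from Salmon 1.0.0 against GRCm38, and a comparison table from DESeq2 1.26.0 that holds log2 fold changes, p-values and a mean normalized level (baseMean, a score), per the submitters' processing notes. How transcripts were summed to genes and whether strand was used are not given in the sources used here. Peaks came from single libraries after alignment with Bowtie2 2.3.5.1, set against their genotype's input. The notes name MACS2 2.2.5, whereas per the file headers it was 2.2.7.1, run with q 0.01 as the limit. The authors' peak values are a pileup signal, a fold enrichment ratio over input and −log10 p-values and q-values, per the file headers.

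Estimated counts were rounded to whole numbers, filtered with filterByExpr, scaled by TMM and tested over all genes of an age with the robust quasi-likelihood F test of edgeR 4.0.16 (R 4.3.3), with DESeq2 1.42.0 as an alternative. Standard errors are approximate, the log2 change divided by the root of F. Contrasts between ages used 1 fit of all 10 libraries. The pipeline was tested on simulated data. Transcript lengths were not used, so levels are not compared between genes. Genes were located in a RefSeq table of GRCm38.p6, which covered 15932 of the 17407 genes tested at P21. Same-numbered cKO and WT libraries had the same sex at both ages, so at P21 the replicate block was also a sex block. The labels do not say whether replicate numbers mark pairs. Deviations of same-numbered libraries correlated at 0.020 at P21 and at -0.49 to -0.021 at E16.5. All 10 genes are named; of each pathway list, genes past the threshold up to 6 or else the closest, and for each gene the 3 most correlated, with any others named chosen after their values were seen. The genes and lists were chosen with earlier results of these data known. The alternatives were other scalings, no filter, DESeq2, a replicate block, each library left out, other peak windows, overlaps and q limits.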

Additional observations from a re-analysis of the deposited data

How the results depend on the processing

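Of 520 values of the 10 genes under alternatives, 482 kept their direction and their side of the threshold, 5 lost a call, 8 gained one and 25 changed sign. Hes5 at P21 kept its call in its 10 alternatives. Counts of genes called across all genes moved more. At P21 they were 489 higher and 680 lower, but 921 and 1228 without the filter, 155 and 350 in 1 fit of all libraries, and 138 to 1244 and 293 to 1627 with a library left out; upper-quartile scaling gave 570 and 519. At E16.5 they were 2 and 19, but 24 and 105 without the filter, 412 and 731 in DESeq2, 32 and 146 in 1 fit of all libraries, 1 and 3 with sex as a covariate, and 0 to 4 and 0 to 13 with a library left out. For the difference between ages they were 81 and 140, but 123 and 235 without the filter, 426 and 798 in DESeq2, 97 and 97 under upper-quartile scaling, and 2 to 273 and 3 to 339 with a library left out. The replicate block gave 361 higher and 501 lower at P21, 0 and 0 at E16.5 and 0 and 1 for the difference between ages; it changed no call among the 10 genes. The causes were not tested.

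With a library left out, log2 changes at P21 ranged from -0.71 to 0.17 for Jag1 and from -0.0068 to 0.37 for Dll1. At E16.5 they ranged from -0.0016 to 0.42 for Dll3, -0.24 to 0.12 for Hes1, -0.59 to 0.095 for Hes5, -0.58 to 0.24 for Hey2, -0.051 to 0.18 for Dll1 and -0.033 to 0.27 for Hey1. For the difference between ages they ranged from -0.22 to 0.64 for Jag1, -0.24 to 0.17 for Notch2, -0.086 to 0.30 for Dll1 and -0.29 to 0.15 for Dll3, and Notch2 was 0.057 under upper-quartile scaling.

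At a −log10 q of at least 5, H3K27ac was at 2 of the 10 genes in WT, with 2 WT peaks and 2 cKO peaks that overlapped one, and H3K27me3 had 13 cKO peaks. Shares of all located genes at that limit were not counted. With lists of equal length H3K27ac had 8 cKO peaks and 1 gene marked only in WT, and H3K27me3 had 5 cKO peaks at 4 genes, all 4 marked only in cKO. With 2 libraries per genotype at P21 and low counts for Hes5 and Dll3, the precision is set by few libraries, and single ChIP libraries give no replicate error.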

Other observations

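Marks at the other pathway lists were counted within 1 kb of a gene at 3 weeks, with 1 library per mark and genotype. Over all located genes H3K27ac was at 71.9% in cKO and 51.0% in WT, and H3K27me3 at 18.0% in cKO and 3.70% in WT. Of the 13 located other Hes and target genes, H3K27ac was at 11 in cKO and 1 in WT (Gfap), and H3K27me3 at 8 in cKO and 3 in WT (Id3, Id4 and Heyl). Of the 10 receptor proteases, H3K27ac was at 10 in cKO and 6 in WT, and H3K27me3 at 0 in either genotype. Of the 15 nuclear effectors and corepressors, H3K27ac was at 14 in each genotype, and H3K27me3 at 2 in cKO (Tle2 and Tle3) and 0 in WT. Of the 17 modifiers, H3K27ac was at 16 in cKO and 14 in WT, and H3K27me3 at 4 in cKO and 1 in WT (Lfng). Of the 8 other ligands and receptors, H3K27ac was at 5 in each genotype, and H3K27me3 at 4 in cKO and 1 in WT (Dlk1). These counts follow the full lists, of which the cKO ones are longer.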
